A study of Mus musculus with 6 samples.

Results

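The histone genes of mouse microglia were examined in 6 RNA sequencing libraries. They were chosen by symbol from the deposited table of 26096 gene rows: every row that starts with Hist1h, Hist2h, Hist3h, Hist4h or H2af, together with H3f3a, H3f3b, H1f0, H1fx, Slbp and Nasp. The rule gave 80 rows. Of these, 67 belong to the replication-dependent histone clusters (5 H1, 18 H2A, 19 H2B, 12 H3 and 13 H4 rows), 11 are variant histones, and Slbp and Nasp encode proteins that bind histone mRNA and histones. In GENCODE M21, matched by gene ID, 54 of the cluster rows lie on chromosome 13, 9 on chromosome 3, 3 on chromosome 11 and 1 on chromosome 6. That annotation lists Hist1h2al, Hist1h2aj, Hist3h2bb-ps and H2afy3 as pseudogenes.

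All 6 samples are wild-type (WT) microglia, the macrophages that live in the brain, and each received conditioned medium from cultured bone marrow-derived macrophages (BMDMs). For 3 of them the BMDMs were ferroptotic, that is, dying through iron-driven lipid peroxidation (ferroptotic medium, FeM CM). For the other 3 the BMDMs were normal (normal medium, C CM, the controls). The sources used here do not give the inducer, the exposure time or where the microglia came from. Nor do they say that cultures were separate, and every p-value below reflects the spread between these samples alone, some or all of which may be technical. These are bulk samples, in which fewer dividing cells and less histone mRNA per cell cannot be told apart.

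Histones are the proteins around which DNA is wrapped. Replication-dependent histones are made in S phase, when newly copied DNA needs packaging, from short genes without introns whose mRNAs end in a conserved stem-loop instead of a poly(A) tail. Slbp, the stem-loop binding protein, holds that structure through processing, export and translation. Variant histones are made throughout the cell cycle from ordinary polyadenylated mRNAs and replace the standard histones in particular regions of chromatin. The libraries here were made with an mRNA kit; such kits usually capture poly(A) tails, so a cluster row can hold mainly those of its transcripts that carry one.

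The stem-loop was searched for after the stop codon in the GENCODE M21 transcripts of every member, as a stem of 6 base pairs, with G-U pairs allowed, closing a loop of 4 bases. Only sites that matched a relaxed letter pattern of the histone stem-loop, from GG to CC, were taken. The forms found are therefore alike in part through the search. It was found in 42 of the 67 cluster rows and in the variant H2afx, 21 to 58 bases after the stop codon. Many of the other cluster rows have a model that ends within 2 bases of the stop codon. In these the search could not find a site, so a row with none found may still have one. The sites below are those of the called cluster rows that hold one, of 1 H4 row that was not called, and of H2afx, with the stem and loop in capitals and 5 bases on either side. They are written as DNA on the mRNA strand.
Hist1h1c: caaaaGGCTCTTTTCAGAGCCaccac
Hist3h2a: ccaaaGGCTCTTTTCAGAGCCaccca
Hist1h2ae: acaaaGGCTCTTTTCAGAGCCattca
Hist1h4h: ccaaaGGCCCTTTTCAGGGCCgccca
Hist1h4i: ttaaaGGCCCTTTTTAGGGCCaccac
Hist2h4: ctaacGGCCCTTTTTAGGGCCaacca
H2afx: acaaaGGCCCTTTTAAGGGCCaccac

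The form printed for Hist1h1c was shared by 25 genes of the H1, H2A, H2B and H3 families, and that of Hist1h4h by 7 H4 genes. Hist1h4i and Hist2h4 shared a form found in no other member, yet they changed in opposite directions (below). No stem-loop of this form was found in the transcript models of Hist2h2be, Hist1h2bc, Hist1h2bq or Hist1h2br. In the models of Hist1h1c, Hist3h2a, Hist1h4i, Hist2h4 and H2afx the transcript runs on past the stem-loop, by 840, 1643, 330, 1257 and 822 bases.

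Values are normalized counts, the deposited log2 values with the log undone, so they are adjusted for library size but not for gene length. Reads assigned to genes numbered between 39624311 and 50557794 per library. Differences are log2 fold changes, ferroptotic minus normal medium, from limma with Benjamini-Hochberg adjustment over the 15597 genes that reached 10 normalized counts in at least 3 libraries, and a gene is called where the adjusted p is under 0.05. By that test 6629 genes (42.5%) were called, 3552 lower (22.8%) and 3077 higher (19.7%).

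Nearly all counts of histone genes in these libraries were those of the variant genes. The 67 cluster rows together reached 2825, 2811 and 2775 normalized counts in the control libraries and 2330, 2210 and 2330 with ferroptotic medium. The 11 variant rows reached 62996, 63591 and 64025 in the controls and 47429, 46000 and 48533 with ferroptotic medium. Both sums were lower in every library given ferroptotic medium than in every control. The cluster sum went to 0.817 of its control mean (2804 ± 25.7 to 2290 ± 69.2, SD, n = 3 each) and the variant sum to 0.745 (63537 ± 516 to 47321 ± 1270, SD, n = 3 each). As a share of the variant sum, the cluster rows were at 4.49%, 4.42% and 4.33% in the controls and at 4.91%, 4.8% and 4.8% with ferroptotic medium. The groups did not overlap, so the variant sum was lowered by more than the cluster sum.

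The cluster sum rested on few rows. Hist1h1c, Hist2h2be, Hist1h2bc, Hist3h2a and Hist1h2al held 71.1% of it, and without Hist1h1c it went to 0.877 of its control mean. Per kb of exon, the scale on which levels can be compared between genes, the median cluster row was at 9.47 normalized counts and the median variant at 1772. The highest cluster row, Hist1h1c (542 per kb), was below 7 of the 11 variants and above H2afv (407 per kb), H1fx, H2afy2 and H2afy3.

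**Figure D1:**
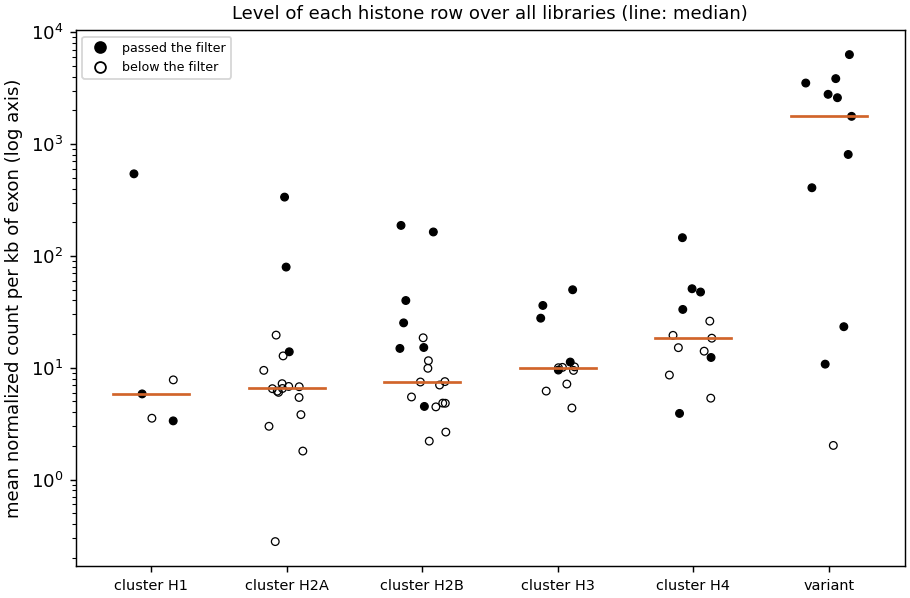
Mean normalized count per kb of exon over all 6 libraries (log axis) for each cluster row by family and for each variant, with filled points for rows that reached 10 normalized counts in at least 3 libraries and a line at each median. The variants from H2afv upward lie at 407 per kb or more, while the medians of the cluster families lie between 5.83 and 18.4.

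Of the 67 cluster rows, 24 passed the minimum and were tested, 5 were lower and 3 higher, and 16 were not called. Among those lower, Hist1h2ae reached the minimum in the control libraries alone. Set against 22.8% lower and 19.7% higher among all genes tested, 5 and 3 of 24 are not above the background. The median log2 fold change was 0.12 over the tested rows and −0.37 over all 67 in a fit with no minimum, against −0.0050 and 0.0096 over all genes in the same fits. Over all 67 rows the groups did not overlap in 10 that were lower and 6 that were higher, where 18% and 18.5% of all rows in the table did not. The cluster median of the tested rows thus had no stable sign: it turned with the minimum, and at the same minimum it was −0.02 without control replicate 2 and −0.03 without ferroptotic replicate 1. The low rows are described on their own below.

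Of the linker histones H1, which bind the DNA between nucleosomes, Hist1h1c is the cluster row with the highest level. It stood at 973, 963 and 1039 normalized counts in the controls and at 726, 668 and 708 with ferroptotic medium. All 3 control libraries were above all 3 others, and Hist1h1c fell by 0.50 on the log2 scale (SE 0.07, adjusted p = 0.000483, limma). Hist1h1d was at 22.5, 8.41 and 25.5 in the controls and 27.6, 30.7 and 34.3 with ferroptotic medium. Its groups did not overlap, but the spread among controls was wide and it was not called (log2 fold change 0.82, SE 0.44, adjusted p = 0.171, limma). Hist1h1e, at 18.6, 17.7 and 9.79 against 4.25, 6.14 and 11.1, overlapped between groups and was not called (−1.04, SE 0.53, adjusted p = 0.154, limma); its exons share 816 bases with other genes of the same strand, among them Hist1h2be. The remaining H1 rows, Hist1h1a and Hist1h1b, stayed below the minimum.

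Among H2A rows, 2 of the 3 tested were lower. Hist3h2a, a row of the small cluster on chromosome 11, was at 197, 225 and 196 in the controls and at 149, 99.3 and 157 with ferroptotic medium. Its groups were apart, with ferroptotic replicate 2 the lowest, and it fell by 0.63 on the log2 scale (SE 0.19, adjusted p = 0.0261, limma). This call was lost when any of the 3 control libraries or ferroptotic replicate 2 was left out (adjusted p between 0.0503 and 0.0815). Hist3h2a shares 708 exonic bases with Trim17, which had at most 10.2 normalized counts in any library.

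Hist1h2ae, whose transcript model ends 151 bases past the stem-loop, was at 14.7, 16 and 19.6 in the controls and at 3.19, 4.09 and 1.11 with ferroptotic medium. It had the most negative value of any tested histone row (−2.31, SE 0.59, adjusted p = 0.0126, limma), at a level of at most 4.09 normalized counts in the ferroptotic libraries. It reached the minimum of 10 normalized counts in the control libraries alone, so the filter itself favoured a fall in this row. Without control replicate 3 its adjusted p was 0.0533. Hist1h2al, the annotated pseudogene, was at 105, 128 and 92.0 in the controls and 122, 119 and 117 with ferroptotic medium, within the spread of the controls (0.15, SE 0.17, adjusted p = 0.5, limma). Hist2h2ac stood just below the minimum, at 8.81, 16 and 9.79 against 6.38, 11.3 and 8.86, with overlapping groups.

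H2B rows went both ways. Hist2h2be, of the chromosome 3 cluster, was at 557, 552 and 547 in the controls and at 421, 413 and 456 with ferroptotic medium. The controls lay close together and well above the other group, and Hist2h2be fell by 0.36 on the log2 scale (SE 0.08, adjusted p = 0.00673, limma). No stretch of 100 bases of Hist2h2be occurs in a transcript of another gene. Hist1h2bc, at 216, 198 and 159.6 against 190.3, 171 and 200.5, had fully mixed groups (−0.02, SE 0.15, adjusted p = 0.915, limma).

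Hist1h2bq was at 15.7, 15.1 and 21.5 in the controls and at 33.0, 48.1 and 46.5 with ferroptotic medium. Hist1h2br was at 15.7, 32.8 and 16.6 in the controls and at 38.3, 48.1 and 49.8 with ferroptotic medium. In both rows the ferroptotic libraries were above all controls, and both rose, Hist1h2bq by 1.24 (SE 0.31, adjusted p = 0.0108, limma) and Hist1h2br by 1.10 on the log2 scale (SE 0.34, adjusted p = 0.0304, limma). They are not separate measurements in full: 94.8% of the 100-base stretches of Hist1h2bq and 86.4% of those of Hist1h2br also occur in another gene, so the authors' counting could divide their reads either way. The call of Hist1h2br was lost without control replicate 1 or 3 or without ferroptotic replicate 2 or 3 (adjusted p between 0.0839 and 0.0868).

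None of the 5 tested H3 rows was called by limma; before adjustment 1 of them, Hist2h3c1, had a p under 0.05. Hist2h3c1 was at 61.7, 57.2 and 24.5 in the controls and at 89.3, 89.0 and 73.1 with ferroptotic medium. The ferroptotic libraries were above all controls, and control replicate 3 was far below the other controls (0.90, SE 0.34, adjusted p = 0.0665, limma). All exonic bases of Hist2h3c1 lie within Gm20634, a gene model of the same strand that was at 267 normalized counts in control replicate 3 and at 0 in the other 5 libraries. Without that control library the log2 fold change of Hist2h3c1 was 0.48 (adjusted p = 0.116, limma). Without control replicate 1 it was called (1.13, adjusted p = 0.0407, limma), as it was with the replicate number as a block (0.90, adjusted p = 0.0382, limma). Hist2h3c2 was at 49.9, 42.1 and 54.8 against 61.7, 53.2 and 43.2, and Hist1h3g at 22.5, 25.2 and 5.87 against 12.8, 4.09 and 17.7. Both had overlapping groups.

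The 2 called H4 rows went in opposite directions. Hist1h4i was at 128, 123 and 179 normalized counts in the controls and at 78.7, 56.3 and 69.8 with ferroptotic medium. It fell by 1.05 on the log2 scale (SE 0.21, adjusted p = 0.0035, limma), with all controls above all other libraries. Hist2h4 moved the other way, from 29.4, 26.9 and 31.3 in the controls to 65.9, 98.2 and 73.1 with ferroptotic medium. It rose by 1.39 on the log2 scale (SE 0.23, adjusted p = 0.00137, limma), again with groups apart. The H4 genes encode the same or nearly the same protein. With normal medium Hist1h4i was the leading H4 row and with ferroptotic medium the 2 rows were at like counts, 68.2 ± 11.3 and 79.1 ± 17.0 (SD, n = 3 each). Of the 100-base stretches, 15.1% of those of Hist1h4i and none of those of Hist2h4 occur in another gene. How the authors' counting assigned reads of shared stretches is not given. The authors' deposited FPKM values, which adjust for length, averaged 4.08 ± 0.875 in the controls and 1.92 ± 0.318 with ferroptotic medium for Hist1h4i, and 0.367 ± 0.0293 and 0.985 ± 0.217 for Hist2h4 (SD, n = 3 each). On that scale Hist1h4i stayed the higher of the 2 in every library. Hist1h4h, next among H4 rows by level, was at 24.5, 31.1 and 8.81 against 21.3, 37.9 and 19.9 and was not called (0.39, SE 0.50, adjusted p = 0.579, limma).

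**Figure D2:**
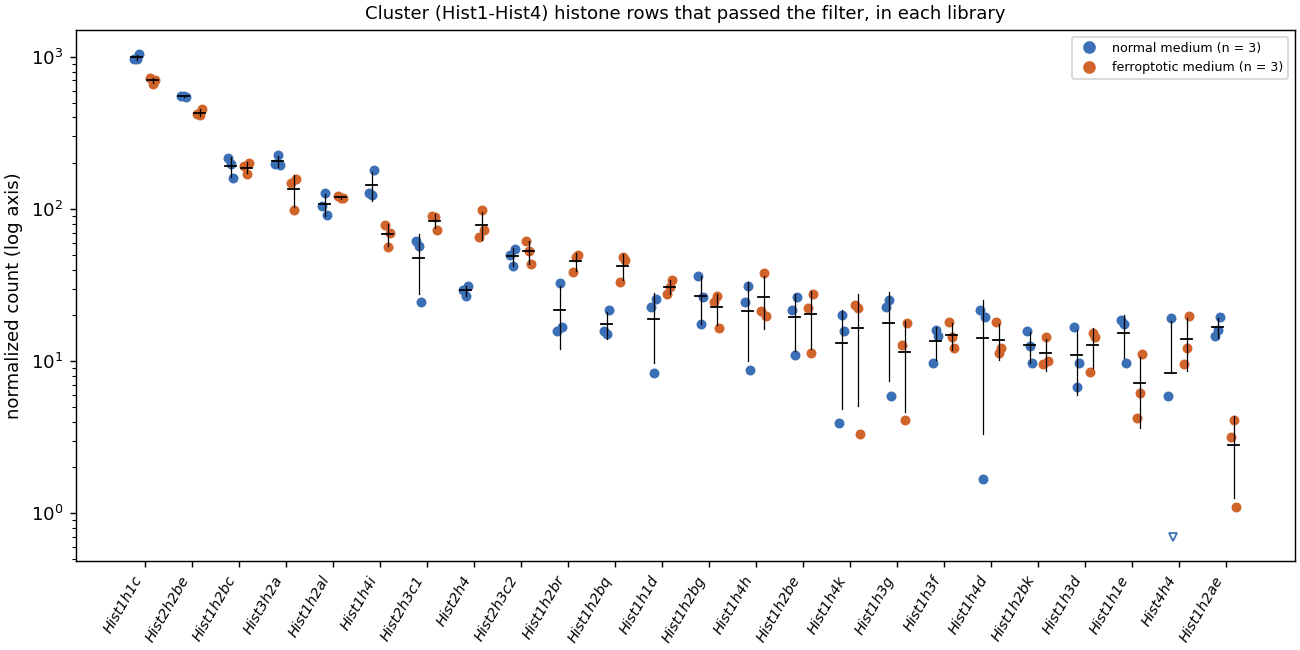
Normalized counts (log axis) of the 24 tested cluster rows in each library, ordered by mean level, with the mean and SD of each group of 3 libraries; SD bars that would reach 0 are drawn upward only, and an open triangle marks a library at 0. Hist1h1c, Hist2h2be, Hist3h2a, Hist1h4i and Hist1h2ae are lower with ferroptotic medium, and Hist2h4, Hist1h2bq and Hist1h2br are higher.

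The other 8 tested cluster rows were not called, with log2 fold changes from −0.21 (Hist1h2bg) to 1.46 (Hist4h4) and overlapping groups in each. Between these were Hist1h2bk, Hist1h2be, Hist1h3f, Hist1h4k, Hist1h3d and Hist1h4d. Their widest spread was that of Hist4h4 (SE 1.04), which was at 0 in control replicate 3. Close to the minimum, the library that decides the minimum (the third in descending order) was at 11.1 for Hist1h1e and at 12.3 for Hist4h4, and just outside it were Hist2h2ac at 9.79 and Hist1h4n at 9.57.

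The 43 cluster rows below the minimum were too low to test one by one, with mean levels from 0.163 to 11.2 normalized counts and 1161 reads over all 6 libraries. Their sum was 242, 244 and 222 in the controls and 151, 136 and 135 with ferroptotic medium, lower in every ferroptotic library than in every control (ratio of means 0.596). In 37 of the 43 rows the mean was lower with ferroptotic medium, while 46.8% of all rows below the minimum in the table were. By family these were 14 of 15 H2A, 7 of 7 H4, 6 of 7 H3, 8 of 12 H2B and 2 of 2 H1 rows. Groups did not overlap in 5 rows that were lower (Hist1h2ag, Hist1h2ao, Hist2h2ab, Hist1h3b and Hist1h3h) and in 1 that was higher (Hist1h2ba), beside 2.82% and 8.06% of all rows below the minimum. The rows are not independent, since the median cluster row shares 37.1% of its 100-base stretches with another gene, against 4.44% for the median variant. No p-value is given for these counts.

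Summed by family over tested and untested rows, H1 went from 1038 ± 41.4 to 743 ± 33.5 normalized counts and H2A from 397 ± 42.1 to 292 ± 26.6 (SD, n = 3 each). H2B went from 897 ± 48.3 to 795 ± 35.6 and H4 from 291 ± 23.7 to 259 ± 16.1. In these 4 families each ferroptotic library was below each control, for H4 only narrowly (273 in ferroptotic replicate 2, 274 in control replicate 1). Single rows carried much of this. Hist1h1c, from 992 to 701, held most of the H1 sum. Hist2h2be, from 552 to 430, fell by more counts than the H2B sum. Hist1h4i, from 143 to 68.2, fell by more counts than the H4 sum. The other H2B rows and the other H4 rows thus did not fall in sum. The H3 sum was at 213, 178 and 149.8 in the controls and at 217, 199.5 and 185 with ferroptotic medium, and these overlapped.

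Variant histones were mostly lower with ferroptotic medium. Of the 11 rows, 10 were tested, 7 were lower and none was higher, where 22.8% of all genes tested were lower; 8 of the 10, all lower, had a limma p under 0.05 before adjustment, as had 7733 of all 15597 genes tested in either direction. The median log2 fold change of the 10 was −0.34, and −0.52 without control replicate 3. The variant H2A genes H2afx, H2afz and H2afv and the linker histone gene H1f0 changed most, and H3f3b and H2afy least among those called.

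H2afx encodes the histone that is phosphorylated around DNA double-strand breaks. Unlike the other variants, its gene gives both a stem-loop mRNA and a polyadenylated one, and its model holds the stem-loop printed above. It was at 5173, 4936 and 4884 in the controls and at 2853, 2694 and 2626 with ferroptotic medium, and fell by 0.88 on the log2 scale (SE 0.05, adjusted p = 1.34e-06, limma), the most of any called variant. H1f0, the linker histone known to accumulate in cells that stop dividing, was at 10110, 9921 and 9654 in the controls and at 6029, 5933 and 5881 with ferroptotic medium. It fell by 0.73 (SE 0.03, adjusted p = 5.06e-07, limma). In both genes the spread within a group was small beside the distance between groups.

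H2afz and H2afv encode closely related H2A.Z proteins, which are placed at promoters by exchange complexes. H2afz went from 7806 ± 1113 to 4695 ± 290.2 (SD, n = 3 each) and fell by 0.73 on the log2 scale (SE 0.11, adjusted p = 0.00267, limma). H2afv went from 826 ± 58.7 to 504 ± 16 and fell by 0.71 (SE 0.08, adjusted p = 0.000139, limma). The 2 genes thus changed by a like amount from levels that differ several-fold per kb (3520 for H2afz and 407 for H2afv). H2afy, which encodes macroH2A1, a large variant of silent chromatin, fell by 0.31 (SE 0.04, adjusted p = 0.000318, limma).

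H3f3a and H3f3b encode the same H3 variant protein, which is deposited outside S phase as well as within it. H3f3b, the most abundant histone gene here, was at 19920, 20287 and 20366 in the controls and at 17249, 16982 and 18077 with ferroptotic medium, and fell by 0.21 (SE 0.03, adjusted p = 0.000689, limma). H3f3a was at 10746, 9274 and 10756 in the controls and at 7299, 7483 and 9134 with ferroptotic medium. Ferroptotic replicate 3 came close to control replicate 2, and H3f3a fell by 0.37 (SE 0.11, adjusted p = 0.0359, limma). That call was lost without control replicate 1 or 3, without ferroptotic replicate 1 or 2, and with no minimum on low values (adjusted p between 0.0504 and 0.119).

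**Figure D3:**
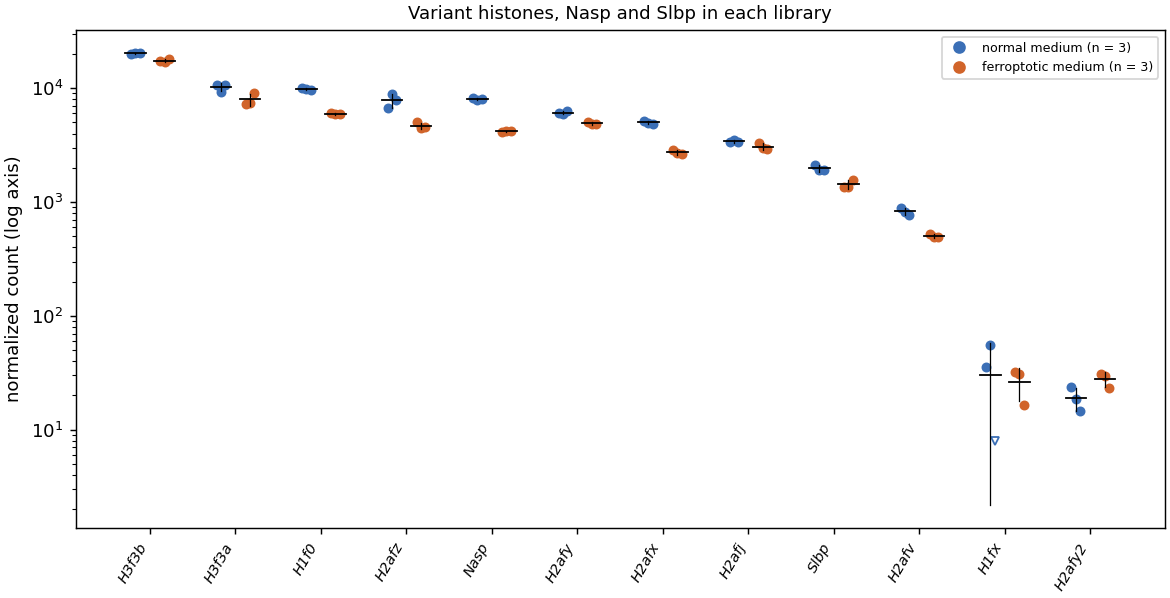
Normalized counts (log axis) of the 10 tested variant histones, Nasp and Slbp in each library, ordered by mean level, with the mean and SD of each group of 3 libraries; an open triangle marks a library at 0. Every gene from H3f3b to H2afv has its 3 ferroptotic libraries below its 3 controls, and H1fx and H2afy2 do not.

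The remaining variants were not called. H2afj, at 3419 ± 103 in the controls and 3072 ± 204 with ferroptotic medium, had groups that did not overlap and an adjusted p of 0.0516 (limma, log2 fold change −0.16, SE 0.06). It was called with a pseudocount of 10, with total-count scaling and without ferroptotic replicate 1 (adjusted p 0.0497, 0.0415 and 0.00887). H2afy2 was at 18.9 ± 4.42 and 27.9 ± 4.08 (0.55, SE 0.32, adjusted p = 0.212, limma). It shares 233 exonic bases with Aifm2 on the opposite strand, which rose by 0.31 (SE 0.06, adjusted p = 0.00245, limma); whether the authors counted by strand is not stated. H1fx was at 35.3, 55.5 and 0 in the controls and at 31.9, 30.7 and 16.6 with ferroptotic medium, too uneven for a direction (SE 1.67, adjusted p = 0.668, limma). H2afy3 had 14 reads in all and was not tested.

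Nasp and Slbp were both lower. Nasp carries newly made H3 and H4, and H1, before they reach DNA. It was at 8200, 7850 and 8043 in the controls and at 4114, 4223 and 4200 with ferroptotic medium. It fell by 0.94 on the log2 scale (SE 0.03, adjusted p = 1.8e-07, limma), the lowest adjusted p among the 80 members. Slbp was at 2130, 1915 and 1897 in the controls and at 1361, 1368 and 1575 with ferroptotic medium. It fell by 0.47 (SE 0.08, adjusted p = 0.00119, limma), to 0.724 of its control level, and its groups were apart.

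**Figure D4:**
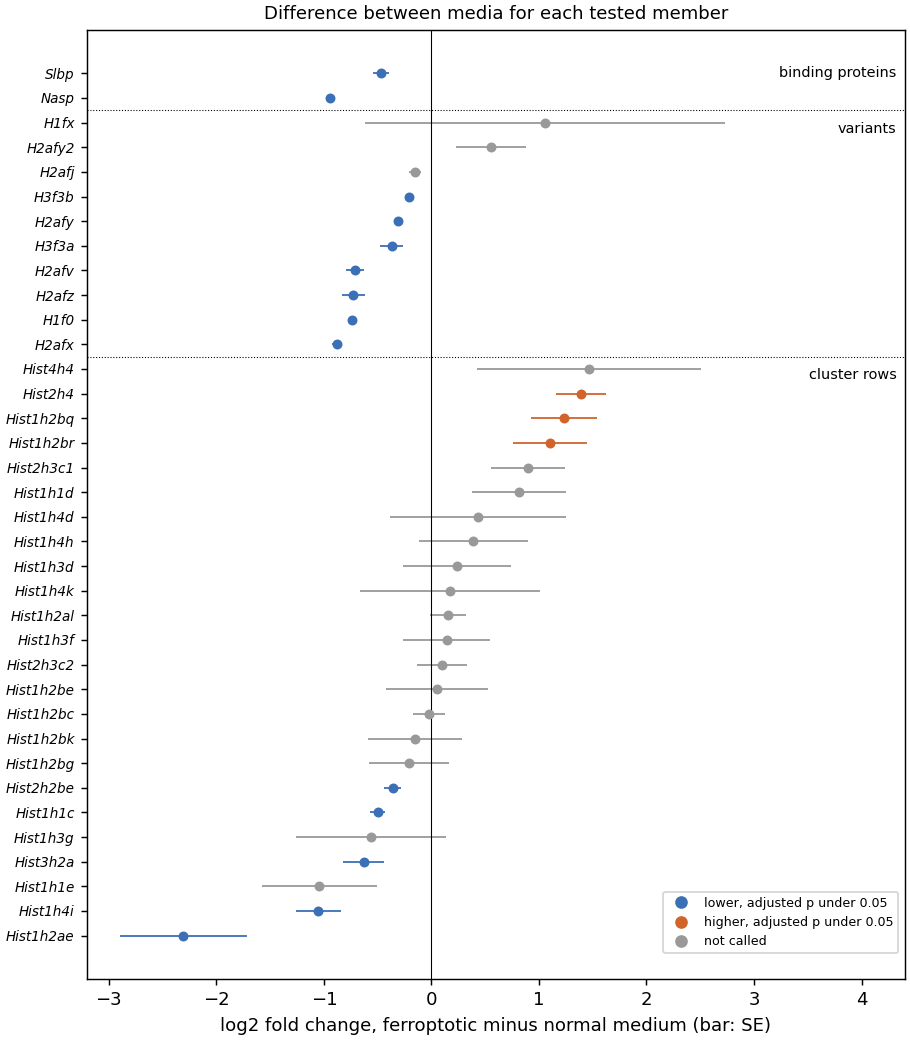
Log2 fold change (ferroptotic minus normal medium, bars are SE) of each of the 36 tested members, by class; colour marks genes called lower, called higher or not called. Called variants, Slbp and Nasp all lie left of 0, while called cluster rows lie on both sides.

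How far a cluster model runs past its stop codon went with whether the row was measured at all. Of the 29 rows with a GENCODE M21 transcript of over 100 bases after the stop codon, 19 passed the minimum and 8 were called. Of the 38 rows with shorter ends or no coding model, 5 passed and none was called. Among all genes tested 42.5% were called, so 8 of 19 is near the background. The 5 tested rows with shorter ends are too few for a comparison of calls. Longer models collect more reads at the same level; the median per kb was 11.2 normalized counts for the longer and 7.48 for the shorter ones. Of the 21 rows whose model runs over 100 bases past a stem-loop, 15 were tested, as were 2 of the 21 whose model ends sooner and 7 of the 25 with no stem-loop found. In that split the median per kb was alike in the first 2 sets, at 10 and 10.1, and was 7.78 with no stem-loop found. Whether the reads came from polyadenylated transcripts was not tested.

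RNAs that carry no long poly(A) tail were listed as a check on what the libraries captured. Of 20 such RNAs, 8 were tested, 1 was lower and none higher, where 22.8% of all genes tested were lower and 19.7% higher. The mitochondrial ribosomal RNA mt-Rnr2 fell by 0.57 (SE 0.08, adjusted p = 0.00137, limma). Of the rest, Rn7sk, the RNA of the 7SK particle, was at 568, 476 and 557 against 459, 444 and 518 and was not called (−0.17, SE 0.10, adjusted p = 0.231, limma). The summed level of the list was 27813 to 29222 in the controls and 21380 to 25972 with ferroptotic medium. Most of that sum is mt-Rnr2 (12101 ± 331 to 8181 ± 928, SD, n = 3 each) and mt-Rnr1, which was not called (14020 ± 294 to 13854 ± 1522), so its difference rests on mt-Rnr2; Rmrp, also not called, had a value of 0.39 (SE 0.27). The part of RNA capture in the cluster values was not tested.

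Promoters were taken from RefSeq (GRCm38.p6, 250 bases before to 50 after the start) for the 70 members that matched by Entrez number, 59 of them cluster rows and 9 variants. In these promoters 4 elements were searched for on both strands: CCAAT, the octamer ATTTGCAT, TATAAA and TTTGAA, the core of the cell cycle homology region. None of these contains another. CCAAT was present in 50 of 59 cluster promoters (84.7%), against 37.4% of all 32851 promoters in the table. It was in every matched H1, H2A, H2B and H3 promoter and in 3 of 12 H4 promoters. The octamer was in 6 of 16 H2A and 6 of 16 H2B promoters and in no H1, H3 or H4 promoter, against 1.74% of all. TATAAA was in 34 of 59 (13.6% of all) and TTTGAA in 28 of 59 (17.9% of all). Of the 9 variant promoters, 6 held CCAAT and 1 each held the octamer, TATAAA and TTTGAA. H2A and H2B genes often lie head to head, and the windows of Hist1h2ah and Hist1h2bk overlap in large part on opposite strands, so their matches are not separate.

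The promoters below belong to called rows of 4 families, 3 lower and 1 higher, and are shown for the elements each holds. Each reads toward its gene, with motif matches in capitals; a match on the opposite strand appears as the reverse complement.
Hist1h1c, lower, chr13:23738557-23738856, plus strand: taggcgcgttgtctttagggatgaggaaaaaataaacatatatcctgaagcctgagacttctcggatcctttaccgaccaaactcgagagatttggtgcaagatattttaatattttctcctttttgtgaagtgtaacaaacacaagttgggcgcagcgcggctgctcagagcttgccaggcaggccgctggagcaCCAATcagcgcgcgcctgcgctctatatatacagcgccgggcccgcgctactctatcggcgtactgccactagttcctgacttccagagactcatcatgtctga
Hist1h2ae, lower, chr13:23571171-23571470, minus strand: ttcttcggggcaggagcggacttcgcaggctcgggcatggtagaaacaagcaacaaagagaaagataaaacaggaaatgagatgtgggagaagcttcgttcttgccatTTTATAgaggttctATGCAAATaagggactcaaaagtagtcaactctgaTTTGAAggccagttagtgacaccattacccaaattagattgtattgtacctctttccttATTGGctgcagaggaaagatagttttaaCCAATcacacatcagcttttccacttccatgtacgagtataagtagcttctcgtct
Hist1h4i, lower, chr13:22041313-22041612, minus strand: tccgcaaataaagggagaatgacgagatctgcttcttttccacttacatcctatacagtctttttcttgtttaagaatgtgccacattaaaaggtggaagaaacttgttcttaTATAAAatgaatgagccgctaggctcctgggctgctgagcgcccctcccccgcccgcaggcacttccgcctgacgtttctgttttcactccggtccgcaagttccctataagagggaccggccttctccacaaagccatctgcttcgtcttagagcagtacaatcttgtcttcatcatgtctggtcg
Hist1h2bq, higher, chr13:21810150-21810449, minus strand: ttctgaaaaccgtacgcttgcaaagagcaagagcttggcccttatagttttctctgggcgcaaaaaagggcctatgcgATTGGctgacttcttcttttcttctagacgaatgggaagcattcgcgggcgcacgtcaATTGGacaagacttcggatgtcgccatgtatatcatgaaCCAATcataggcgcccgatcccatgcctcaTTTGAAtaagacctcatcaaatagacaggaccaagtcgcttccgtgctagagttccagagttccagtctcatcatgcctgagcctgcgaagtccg

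Hist1h2ae, which fell, held all 4 elements, and Hist1h2bq, which rose, held CCAAT and TTTGAA. Neither window belongs to that gene alone. That of Hist1h2ae overlaps in large part with the window of Hist1h2bg, which held all 4 elements and was not called (log2 fold change −0.21). That of Hist1h2bq overlaps in large part with the window of Hist1h2ao, which held CCAAT and TTTGAA. Hist1h2ao was below the minimum and lower with groups apart. Hist1h4i held TATAAA alone and Hist1h1c CCAAT alone. A match is only a match of letters in this window.

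Genes that transcribe, cut, carry and degrade histone mRNA were followed as a list. Of 31 tested, 16 were lower and 2 higher, with a median log2 fold change of −0.28. Among all genes tested 22.8% were lower and 19.7% higher. Those with the smallest p were Srrt, which links the mRNA cap to 3′ end processing (−0.55, SE 0.03), the Sm protein gene Snrpb (−0.56, SE 0.04), the cleavage factor gene Cstf1 (−0.54, SE 0.05) and Eri1, the exonuclease that trims the stem-loop (−0.52, SE 0.05). Their adjusted p-values lay between 3.66e-06 and 8.05e-05 (limma). The 2 that rose were Fip1l1 (0.13, SE 0.04, adjusted p = 0.0264) and the cap-binding gene Ncbp1 (0.12, SE 0.04, adjusted p = 0.0325, limma).

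Genes of the histone locus body and of the U7 particle are named here for their roles, with their values known. They are the parts of this list devoted to replication-dependent histones, and Coil is given beside them. Npat, which activates histone transcription in S phase, was at 3641, 3853 and 3890 in the controls and at 2821, 3242 and 3335 with ferroptotic medium, and fell by 0.28 (SE 0.07, adjusted p = 0.00872, limma). Casp8ap2, which works with it, fell by 0.70 (SE 0.11), and Coil, which encodes coilin, fell by 0.70 (SE 0.08). Lsm11, of the U7 particle, fell by 0.45 (SE 0.10), and Zfp473, a partner of Slbp in histone mRNA cleavage, fell by 1.16 (SE 0.21). Their adjusted p-values lay between 0.000117 and 0.00664 (limma). Lsm10, the partner of Lsm11, was not called (−0.15, SE 0.15, adjusted p = 0.452, limma), nor was Hinfp, which activates H4 genes (−0.29, SE 0.23, adjusted p = 0.363, limma).

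Of 18 genes listed as histone chaperones of DNA replication, 14 were lower, where 22.8% of all genes tested were, and none was higher (median −0.51). Not all of the listed genes act at the replication fork itself. Asf1b, which hands H3 and H4 to assembly factors, was at 4039, 4313 and 4076 in the controls and at 1412, 1580 and 1510 with ferroptotic medium, and fell by 1.47 (SE 0.06, adjusted p = 2.13e-07, limma). Chaf1a, the large subunit of chromatin assembly factor 1, fell by 1.13 (SE 0.04), Mcm2, a helicase subunit that holds histones, by 0.99 (SE 0.04) and Hat1, which acetylates new H4, by 0.87 (SE 0.05), with adjusted p-values between 1.27e-07 and 1.74e-06 (limma). The 4 that were not called were Npm1 (−0.17), Cdan1 (−0.32), Ipo4 (0.03) and Nap1l1 (−0.02).

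Chaperones and exchange factors of variant histones were lower in 14 of 23, where 22.8% of all genes tested were, with none higher and a median of −0.28. The centromeric H3 variant gene Cenpa, which the symbol rule does not take in, fell by 1.74 (SE 0.09) and its loading factor Oip5 by 1.6 (SE 0.14). Ruvbl1, an ATPase of exchange complexes, fell by 0.42 (SE 0.04), and these adjusted p-values lay between 1.04e-06 and 5.83e-05 (limma). Among factors for the variants above, named for that role with their values known, Hira and Daxx, which deposit the protein of H3f3a and H3f3b, fell by 0.27 (SE 0.06) and 0.41 (SE 0.06), and Anp32e, a chaperone of the H2afz protein, by 0.45 (SE 0.11). Their adjusted p-values lay between 0.000579 and 0.0154 (limma). Partners of Hira were not called: Ubn1 (0.08, SE 0.11), Ubn2 (0.06, SE 0.08), Cabin1 (−0.06, SE 0.05) and Asf1a (0.05, SE 0.07). Nor were Atrx, the partner of Daxx (−0.18, SE 0.14), and Srcap, an exchanger of the H2afz protein (−0.28, SE 0.16).

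S phase genes outside the histone lists are given for scale, since cluster histones are made in S phase. Of 35, 33 were lower, where 22.8% of all genes tested were, and none was higher, with a median of −0.98. In this list, the chaperone lists and the small RNAs above, no gene was higher even at an unadjusted limma p under 0.05. Not called were Fen1 (−0.68, adjusted p = 0.286) and Cdk2 (−0.36, adjusted p = 0.319, limma). Rrm2, a subunit of ribonucleotide reductase, fell by 1.55 (SE 0.03), and Uhrf1 by 1.32 (SE 0.04). The helicase subunit genes Mcm6 and Mcm7 fell by 1.35 (SE 0.04) and fell by 1.2 (SE 0.03), with all 4 adjusted p-values between 1.78e-08 and 5.18e-08 (limma). The list sum was 223914 to 226236 in the controls and 106496 to 108912 with ferroptotic medium, a wider distance than that of the cluster or the variant sum. The part of the share of cells in S phase in the histone values was not tested.

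**Figure D5:**
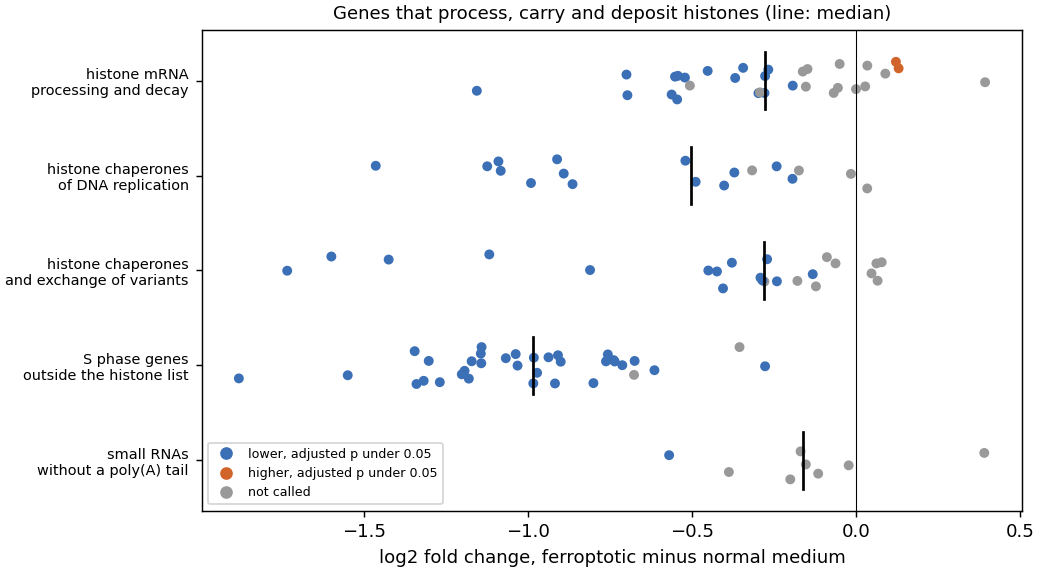
Log2 fold change (ferroptotic minus normal medium) of each tested gene in 4 lists of histone and S phase genes and in the list of small RNAs, with a line at each list's median; colour marks the call. The S phase list lies furthest to the left (median −0.98) and the small RNAs nearest to 0 (−0.16).

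The labelled cell type was checked by markers, with log2 fold changes in parentheses and calls by limma. Of 18 markers of microglia and macrophages, 12 were tested; Adgre1 (0.73), Fcer1g (0.19) and Tyrobp (0.19) were higher, and those lower included Trem2 (−1.36), Csf1r (−0.38) and Cd68 (−0.28). Csf1r was at 57734 to 77618 and Cd68 at 29433 to 38049 normalized counts, while the microglial genes P2ry12, Tmem119, Fcrls and Gpr34 were each at 0 in at least 3 libraries. The summed list stood at 190180 to 195865 in the controls and 173667 to 180844 with ferroptotic medium. Of 8 astrocyte markers 4 were tested, with Gja1 (0.49) and Aldoc (0.26) higher, Aldh1l1 (−0.64) lower, and Slc1a2 and Slc1a3 at 0 in 5 libraries; their sum, mostly Aldoc, stood at 3357 to 3652 and 4182 to 4362. Of 10 oligodendrocyte markers 5 were tested, with Mag (1.01) higher and Mbp (−0.69), Cldn11 (−1.24) and Cnp (−0.14) lower; their sum, mostly Mbp, stood at 8826 to 9386 and 6146 to 6359. Among neuron markers (2 of 8 tested) Tubb3 was higher (3.46), and the sum stood at 15.7 to 45.0 and 104 to 114. Among fibroblast and endothelial markers (5 of 9 tested) Pecam1 (0.51) and Dcn (2.08) were higher, and the sum stood at 329 to 351 and 434 to 496. Among lymphocyte and neutrophil markers (2 of 10 tested) S100a8 was higher (3.37), and the sum stood at 44.6 to 82.3 and 174 to 205. The part of these differences in the histone values was not tested.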

How the data were processed

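RNA from 3 samples per group was sequenced. The submitters' processing notes name HISAT2 2.1.0 and fastp 0.17.1 together with R 3.4.3 and DESeq2 1.18.1. Build, annotation and counting tool are not given in these sources. The deposited log2 values per library behave as log2(count divided by a size factor, plus 1): with the log undone, 100% were multiples of the step of a single read (tolerance 0.01). Among low values 3 reads were more frequent than 2 (6101 against 5169), so the counts may be rounded estimates. The authors also deposited a log2 fold change and p-value per gene, which were not used, and FPKM values for their changed genes, of which 6 are members.

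The test was limma 3.58.1 (trend, robust, two-sided, R 4.3.3) on the deposited log2 values, for genes that reached 10 normalized counts in 3 or more libraries. Fold changes are therefore differences of means on the log2(normalized count + 1) scale. For low genes this can understate a change, while a library near 0 can enlarge it or turn its sign. H1fx had a log2 fold change of 1.05, though its mean count went from 30.3 in the controls to 26.4 with ferroptotic medium. The threshold was an adjusted p of 0.05. Per-library values are given for the 3 highest members and the 2 of smallest p in each histone family and among the variants, and for Slbp and Nasp; for lists, up to 4 genes of smallest p, and every gene where 5 or fewer are counted. Some genes that this rule names are not reported here. Casp8ap2, Coil and others named for their roles, and the low rows with separate groups, were added with values known. Members and lists were chosen with earlier results of these data known. The test was checked on simulated data. Alternatives were other minimums, pseudocounts and scalings, limma-voom, a replicate block and each library left out. Levels per kb use GENCODE M21 exons, matched by gene ID.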

Additional observations from a re-analysis of the deposited data

How the results depend on the processing

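Of the 17 called members, 13 were called under each of 14 alternatives; the exceptions were Hist3h2a, Hist1h2br, H3f3a and Hist1h2ae, and H2afj and Hist2h3c1 were called under some. No log2 fold change of a called member changed sign. Leaving out 1 library at a time gave 5 to 8 called cluster rows, the 5 (2 higher, 3 lower) without control replicate 3, 6 or 7 called variants and 5798 to 6188 called genes in all. Without its highest row the log2 ratio of the summed counts was −0.19 for the cluster rows (−0.29 with it) and −0.54 for the variants (−0.43 with it). Same-numbered samples did not deviate together (r = 0.00859, −0.0196 and −0.0393 across genes), and the replicate block gave 9 cluster rows (4 higher, 5 lower), 7 variants and 6226 genes. Low rows limit what can be seen: 43 cluster rows rest on 1161 reads in all.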
